A study of Mus musculus with 2 samples.

Results

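Alveolar type 1 (AT1) epithelial cells were found by their RNA among cells sorted from fetal mouse lung, and 206 barcodes of 8598 singlets, and of 10648 barcodes in all, were taken as members. They were chosen by measured UMIs (unique molecular identifiers, counted RNA molecules): a member had at least 3 UMIs of Rtkn2, Aqp5 and Gramd2 together. It had at most 1 UMI of the type 2 cell genes Slc34a2 and Lyz1, at most 2 of endothelial Cldn5, at most 3 of the collagen genes Col1a2 and Col3a1 and at most 3 of mast cell Hdc. It also had to hold at least 200 genes, at most 5% mitochondrial UMIs and a top hashtag with at least 10 UMIs and at least 3 times the next.

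The lungs came from wild-type C57BL/6J fetuses at gestation day 18. From day 12 onwards their mothers, 9 weeks old, were given drinking water that held either dexamethasone (DEX, a synthetic glucocorticoid) at 1.3 µg/ml or phosphate-buffered saline (PBS) as the control. Fetuses were pooled by litter, and each litter carried its own hashtag, an antibody with a sequence barcode: DEX-1 held 8 fetuses, DEX-2 held 9, PBS-1 held 5 and PBS-2 held 8. All litters went through 10x Genomics 5′ libraries together, so the litter, with 2 per group, was the replicate. The sources conflict on the number of mothers: the labels and hashtags give 2 litters per group, while a legend in the study gives a single dam. Every SE, p and n here rests on the count by hashtag. The sort was set for group 2 innate lymphoid cells (ILC2s): it kept live cells with CD45 and ST2 and without lineage markers. Epithelial cells were therefore outside the intended gate, and Ptprc, the gene for CD45, gave a UMI in 16 of the 206 AT1 cells. How these cells passed the sort was not tested, and their number says nothing of AT1 numbers in the lung.

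AT1 cells are the thin, spread cells that cover most of the gas exchange surface, lying with capillary endothelium on a shared basement membrane. Cuboidal type 2 cells, which make surfactant, are their partners in the alveolus. Late in gestation both arise from distal lung progenitors, a step in which glucocorticoids, NKX2-1 and the Hippo effectors YAP and TAZ are known to act, and AT1 cells signal to vessels and mesenchyme through factors such as VEGFA and PDGFA.

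The members stood apart on the selection sum. Of the singlets that met the other limits, 2655 had a sum of 0, 127 of 1 and 14 of 2, the highest just outside the rule. Just inside it, 2 had a sum of 3 and 30 a sum of 4 to 9. Most members lay well above, with a median of 23 UMIs (3 to 140). All 3 selection genes were seen in 165 members, 2 of them in 37 and 1 in 4. These values chose the members and are a description only. Of 859 singlets with a sum of at least 3, 505 were left out for type 2 genes and 148 for the endothelial, collagen or Hdc limits.

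Pdpn (podoplanin, a surface glycoprotein of AT1 cells) and Msln (mesothelin, a surface protein also made by mesothelium) were markers that the rule did not use. Pdpn gave a UMI in 86.9% and Msln in 96.1% of AT1 cells, and 173 members had both while 2 had neither. In 2026 reference cells with at least 2 Ptprc UMIs, which should lack both genes, the shares were 1.14% and 1.48%. The median depth was 8435.5 UMIs in AT1 cells and 9993 in the reference cells. With each cell thinned to 2000 UMIs, which left out 4 AT1 cells, the AT1 shares were 45.0% for Pdpn and 85.1% for Msln, and the reference shares 0.250% and 0.599%. The label thus had its markers in these barcodes. Hopx, a homeodomain cofactor, and Ager, the receptor for advanced glycation end products, gave a UMI in every member, against 13.2% and 9.33% of the reference cells. Type 2 cells, selected as given below, also had these genes: Hopx in 84.2%, Ager in 95.6%, Pdpn in 36.2% and Msln in 43.4%. After thinning, their shares were 54.7%, 72.5%, 6.46% and 21.1% in the same order, so none of these genes was confined to AT1 cells.

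**Figure D1:**
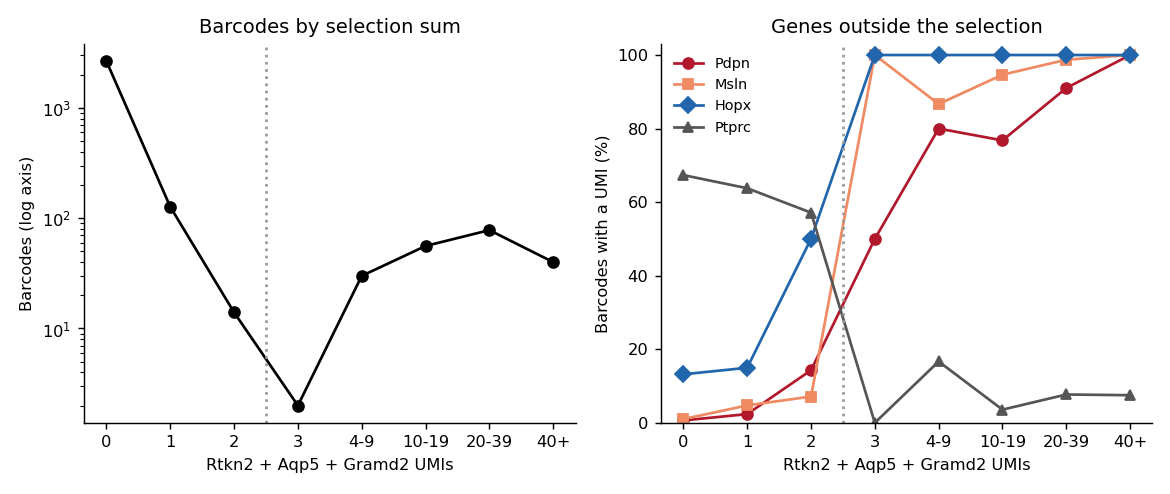
Left, number of singlets that met the other limits (log axis) by their summed Rtkn2, Aqp5 and Gramd2 UMIs; right, share of those singlets with a UMI of Pdpn, Msln, Hopx or Ptprc in each band of the sum, with the dotted line at the rule's minimum of 3. Barcodes were fewest at a sum of 3, and Pdpn went from 0.640% of barcodes at a sum of 0 to 100% at 40 UMIs and over.

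Mesothelial cells also make Msln. Of 11 mesothelial markers Wt1, Lrrn4, Aldh1a2 and Muc16 had 0 UMIs over all members and Upk3b had 1. Krt19 (4752 UMIs) and Msln (2760 UMIs) are on the same list, and both are also AT1 genes. Of 11 mast cell and basophil markers Ms4a2, Fcer1a and Mrgprb1 were at 0, while Kit had 39 UMIs, Cma1 27, Hdc 24, Cpa3 21 and Tpsb2 18. Of 11 mesenchymal markers Pdgfra and Dcn were at 0, while Mfap4 had 74 UMIs (in 13.6% of members, against 12.1% of the reference cells), Fn1 41, Acta2 35 and Tagln 22. All 11 endothelial markers had UMIs, led by Ramp2 with 110 (in 17.0% of members, against 8.84% of the reference cells). The genes of these marker lists in this paragraph were named after their values were seen. A UMI of Sftpc (surfactant protein C, a type 2 gene) was present in 88.8% of AT1 cells but also in 77.0% of the reference cells. The median was 4 Sftpc UMIs per AT1 cell, and 25 members held at least 100, with a highest value of 1612.

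The promoters below show genes that mark or fill these cells, from 250 bases before to 50 bases after a transcription start, as RefSeq lists them on GRCm38.p6. Capitals mark a match, on either strand, to GGAATG (bound by TEAD factors), CAAGTG (bound by NKX2-1) or AGAACA (a hexamer of glucocorticoid receptor elements). Pdpn is shown as a marker outside the rule, Hopx as a gene found in every member, and Clic5 and Cav1 as AT1 genes with a match to the glucocorticoid receptor hexamer.
Pdpn, chr4:143299515-143299814, minus strand: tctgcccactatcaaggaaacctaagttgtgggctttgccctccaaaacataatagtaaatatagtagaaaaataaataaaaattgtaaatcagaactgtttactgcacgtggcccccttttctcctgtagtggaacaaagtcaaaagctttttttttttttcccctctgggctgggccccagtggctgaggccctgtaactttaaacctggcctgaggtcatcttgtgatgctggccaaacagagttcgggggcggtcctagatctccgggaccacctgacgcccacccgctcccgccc
Hopx, chr5:77095218-77095517, minus strand: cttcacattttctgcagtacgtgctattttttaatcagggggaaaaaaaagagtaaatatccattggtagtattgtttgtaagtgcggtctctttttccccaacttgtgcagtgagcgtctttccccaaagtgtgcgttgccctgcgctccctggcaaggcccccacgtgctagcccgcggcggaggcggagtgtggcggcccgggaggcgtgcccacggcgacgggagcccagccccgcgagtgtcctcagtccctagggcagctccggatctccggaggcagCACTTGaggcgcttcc
Cav1, chr6:17306085-17306384, plus strand: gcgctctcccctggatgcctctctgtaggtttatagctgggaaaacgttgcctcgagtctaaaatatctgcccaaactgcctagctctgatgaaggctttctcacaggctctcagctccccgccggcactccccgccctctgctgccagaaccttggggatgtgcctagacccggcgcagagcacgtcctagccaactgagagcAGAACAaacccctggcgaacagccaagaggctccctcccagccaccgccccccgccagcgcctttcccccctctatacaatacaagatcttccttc
Clic5, chr17:44188322-44188621, plus strand: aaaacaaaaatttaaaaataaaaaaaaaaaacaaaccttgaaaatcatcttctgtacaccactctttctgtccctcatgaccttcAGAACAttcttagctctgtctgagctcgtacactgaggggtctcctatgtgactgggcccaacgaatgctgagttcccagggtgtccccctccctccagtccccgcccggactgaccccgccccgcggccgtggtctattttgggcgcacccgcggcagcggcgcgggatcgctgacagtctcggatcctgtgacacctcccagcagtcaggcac
The Pdpn window held no match. This Hopx start held CAAGTG on the opposite strand, starting 34 bases after the start site, and the gene's other listed start held none. The windows of Ager and of the keratin gene Krt7, which were also found in every member, held no match. AGAACA lay 46 bases before this start of Cav1, whose other listed start (chr6:17307390-17307689) held none, and 165 before that of Clic5. Over 33 promoters of 27 genes of an AT1 identity list (30 genes known from AT1 cells), GGAATG was in 9.09%, CAAGTG in 27.3% and AGAACA in 18.2%. Over all 32851 promoters listed the shares were 14.7%, 13.6% and 19%. A match is a run of letters, not a measured binding site.

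The levels of AT1 cells were then set beside those of 698 type 2 cells (at least 5 Sftpb UMIs, at least 2 of Slc34a2 and Lyz1, at most 2 of Cldn5). The selection separated these classes, so the differences carry no test. UMIs were summed per litter and class and given as CPM (counts divided by the total and multiplied by 1e+06) after TMM scaling over the 8 sums, which moved AT1 against type 2 levels by 0.19 on the log2 scale. Of 13064 genes measured, 232 were at least 2-fold higher in AT1 cells in all 4 litters and 656 at least 2-fold lower. The type 2 gate set no limit on AT1 genes, and 287 of its 698 barcodes had a selection sum of at least 3. Ratios are therefore also given against the 375 type 2 barcodes with a sum under 2, the stricter type 2 cells, where 434 genes were higher and 580 lower of 11638 measured.

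The markers had the following levels. Rtkn2 (chr10:67979570-68059740, plus strand, GRCm38) was at 350 and 517 CPM (DEX-1, DEX-2) and at 548 and 529 CPM (PBS-1, PBS-2) in AT1 cells, against 64.2 to 107 CPM in type 2 cells. Aqp5 (a water channel, chr15:99590782-99594829, plus strand) was at 1661, 1916, 2137 and 1542 CPM in the same order, against 313 to 487. Gramd2 (a GRAM domain membrane protein, chr9:59680144-59718874, plus strand) was at 189, 226, 253 and 256 CPM, against 39.3 to 57.3. Every AT1 litter lay above every type 2 litter for these genes, which the rule had chosen.
Pdpn (chr4:143267431-143299564, minus strand) was at 162, 304, 422 and 373 CPM in AT1 cells and 36.0, 58.5, 60.2 and 63.6 CPM in type 2 cells, a log2 ratio of 2.45 ± 0.28 (SD over 4 litters). Msln (chr17:25748613-25754378, minus strand) was at 930, 1551, 1395 and 1045 CPM, against 152, 276, 230 and 233 CPM, a log2 ratio of 2.46 ± 0.21. AT1 litters again lay wholly above type 2 litters, and the ratios were 35.8-fold for Pdpn and 65.2-fold for Msln against the stricter type 2 cells, in place of 5.48-fold and 5.51-fold.

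**Figure D2:**
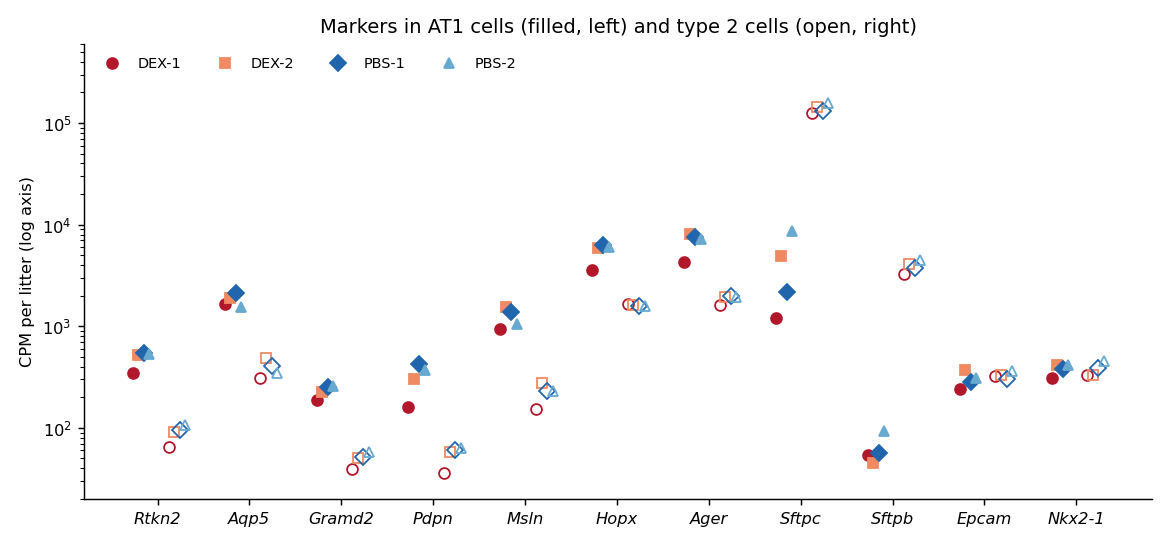
Level of the 5 markers and of Hopx, Ager, Sftpc, Sftpb, Epcam and Nkx2-1 (CPM after TMM scaling over the 8 sums, log axis) in AT1 and type 2 cells, 1 point per litter. For each of the 5 markers the 4 AT1 points sit above the 4 type 2 points, and the DEX-1 point is the lowest AT1 point except for Aqp5. Hopx and Ager are also higher in AT1 cells, Sftpc and Sftpb are lower, and Epcam and Nkx2-1 overlap.

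Of 29 measured genes of the AT1 identity list, 22 were at least 2-fold higher in AT1 cells in every litter and 0 lower, with a median log2 ratio of 1.79 (3.61 against the stricter type 2 cells), where the median over all genes was -0.13. Hopx was at 3588 and 5944 CPM (DEX-1, DEX-2) and at 6271 and 6065 CPM (PBS-1, PBS-2), against 1570 to 1657 CPM in type 2 cells. Ager was at 4339, 8184, 7597 and 7185 CPM, against 1616 to 1968. DEX-1 was the lowest AT1 litter for both.
Emp2, a tetraspan membrane protein, had a log2 ratio of 1.79, and S100a6, a calcium-binding protein, one of 2.09 ± 0.17. Spock2, an extracellular proteoglycan, had 2.31 ± 0.40 and was named after its values were seen.

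Genes of membrane spread and of the caveolae, the flask-shaped membrane pits abundant in AT1 cells, were higher in AT1 cells in 9 of 17 cases and lower in 0, with a median of 1.52 (13 of 17 and 2.73 against the stricter type 2 cells). Cav1, the coat protein of caveolae, was lowest in DEX-1 (879 CPM) and elsewhere between 1367 and 1596 CPM, a log2 ratio of 2.14 ± 0.15. Cavin2, which shapes caveolae, was at 404, 645, 878 and 746 CPM, with a ratio of 2.15 ± 0.11, and Ehd2, which holds them at the membrane, had 2.28 ± 0.15.
Fluid and ion transport was mixed, with 7 of 20 genes higher and 4 lower and a median of 0.13 (8 and 4 of 19, and 0.42, against the stricter type 2 cells). The higher ones included the water channel Aqp1 (2.23 ± 0.19), the chloride channel family protein Clic5 (2.08 ± 0.03), and the sodium channel subunits Scnn1b (2.33 ± 0.34) and Scnn1g (2.21). Atp1b1, a subunit of the sodium pump, was at 590 to 819 CPM in AT1 cells and at 928 to 1128 CPM in type 2 cells.

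Of 25 basement membrane and matrix genes, 11 were higher and 0 lower (median 1.08, and 13 of 23 with 1.86 against the stricter type 2 cells). Col4a4, a collagen IV chain, was at 189, 257, 305 and 307 CPM against 51.1 to 72.8 CPM, a ratio of 2.07 ± 0.24. Sparc, a matrix-binding glycoprotein, had 1.55 ± 0.22, Timp3, a protease inhibitor bound to matrix, 1.59 ± 0.13, and Npnt (nephronectin), an integrin ligand, 1.25 ± 0.11.
Signals to vessels and mesenchyme were higher in 5 of 20 cases and lower in 1 (median 0.62, and 8 and 1 of 19 with 1.27 against the stricter type 2 cells). Vegfa, the growth factor of endothelium, was at 640, 923, 912 and 892 CPM in AT1 cells and at 178, 239, 238 and 245 CPM in type 2 cells, which is 3.72-fold. Pdgfa, a growth factor for mesenchyme, had a log2 ratio of 1.46 ± 0.15, and the guidance factors Sema3a and Sema3e had 1.72 ± 0.21 and 1.74 ± 0.33. All 4 were at least 2-fold higher in every litter.

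Among AT1 transcription factors and Hippo genes, 2 of 21 were higher and 3 lower (median 0.35, and 4 and 3 with 0.54 against the stricter type 2 cells). The transcript of TAZ, Wwtr1, was at 249, 354, 328 and 367 CPM against 116 to 162 CPM, a ratio of 1.18 ± 0.09. NKX2-1, the lung lineage factor, showed no such split: its gene was at 310, 415, 381 and 420 CPM in AT1 cells and 328, 330, 391 and 453 CPM in type 2 cells, and the litters overlapped. Of 18 measured YAP and TAZ target genes, 3 were higher and 1 lower (median 0.77), and against the stricter type 2 cells 8 of 15 were higher and 0 lower (1.19). Ccn1 and Ccn2, matricellular proteins, had log2 ratios of 1.36 ± 0.32 and 2.20 ± 0.52.
Keratins of simple epithelium were in both classes, and Krt8 and Krt18 were higher in AT1 cells, with ratios of 1.48 ± 0.08 and 1.33 ± 0.09. The proliferation list had 0 of 20 genes 2-fold apart in either direction. Cells with at least 3 UMIs of that list after thinning made up 4.46% of 202 AT1 cells and 7.17% of 697 type 2 cells. By litter (DEX-1, DEX-2, PBS-1, PBS-2) the shares were 0%, 3.03%, 4.55% and 6.67% in AT1 cells. In type 2 cells they were 7.25%, 7.87%, 8.85% and 6.23%, so in PBS-2 the AT1 share was the higher.

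**Figure D3:**
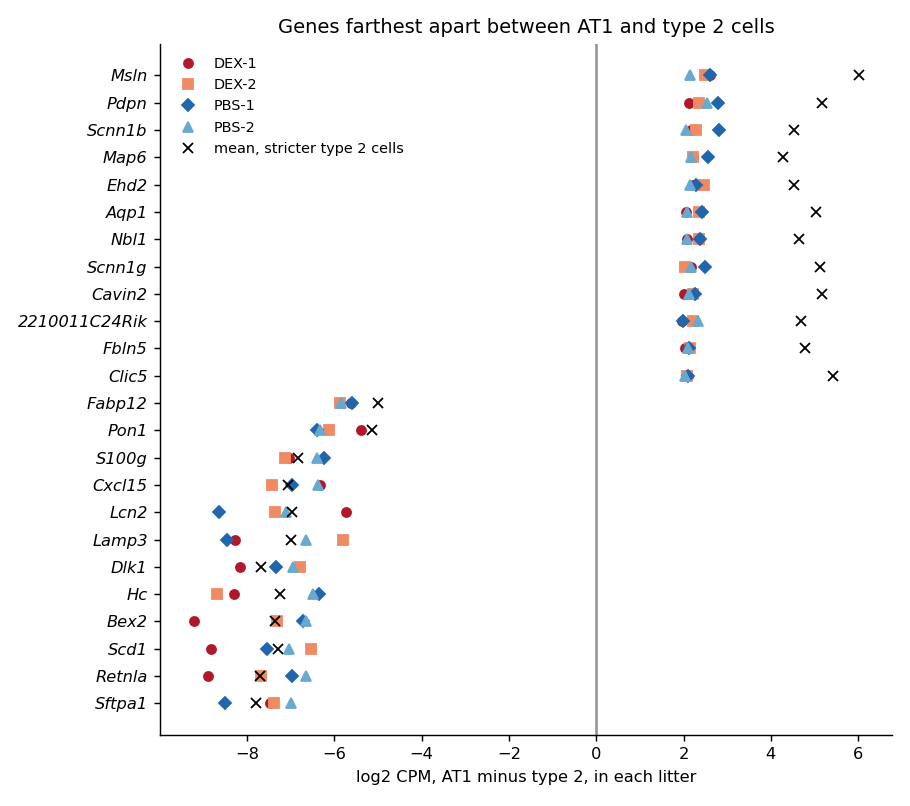
Log2 ratio of AT1 to type 2 cells for the 12 genes farthest apart in each direction outside the rule's genes. Coloured points are litters, and crosses are the mean against the stricter type 2 cells. The crosses lie farther to the right than the points for the genes high in AT1 cells, such as Pdpn (5.16 against 2.45). The median over the 12 genes high in AT1 cells is 4.91 for the crosses, against 2.23 for the means over litters.

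Outside the rule's genes, the 12 with the largest smallest-over-litters ratio were Pdpn, Msln, Clic5, Aqp1, Cavin2, Map6, Ehd2, Nbl1, Scnn1b, Fbln5, Scnn1g and 2210011C24Rik. The median ratio of these 12 was 2.23 and 4.91 against the stricter type 2 cells, and all 12 were still at least 2-fold higher in every litter. Map6, a microtubule stabiliser, was at 40.4, 75.2, 105 and 78.7 CPM against 7.86 to 17.0 CPM, and Fbln5 (fibulin 5), an elastic fibre protein, had a log2 ratio of 2.10.
The 12 genes lowest in AT1 cells were led by type 2 products. Sftpa1 (surfactant protein A) was at 14.6 to 55.2 CPM in AT1 cells and 5553 to 7141 CPM in type 2 cells. Dlk1, a Notch ligand-like growth regulator, was at 23.6 to 71.9 CPM against 6906 to 8065 CPM, and Cxcl15, a lung chemokine, at 45.1 to 87.0 CPM against 5824 to 7927 CPM. Pon1 and Fabp12 had 0 UMIs in AT1 cells (of 2110648 in all), against 1009 and 748 UMIs in type 2 cells (of 14391843 in all). In type 2 cells Pon1 was at 41.9 to 85.7 CPM and Fabp12 at 48.8 to 59.4 CPM. The others were Lamp3, Bex2, Scd1, Hc, Lcn2, S100g and Retnla, with 4 to 44 UMIs over all AT1 cells.
Sftpc, at 1220, 4908, 2162 and 8610 CPM in AT1 cells, was far below the 125450 to 157320 CPM of type 2 cells. Il33, the ligand of ST2 and named after its values were seen, had 1 UMI in AT1 cells (0 to 2.09 CPM) and 792 in type 2 cells (41.9 to 75.9 CPM).

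Total UMIs of the AT1 cells ran from 260710 (17 cells, DEX-1) through 450536 (44 cells, PBS-1) and 581927 (68 cells, DEX-2) to 817475 (77 cells, PBS-2). The limit that a count of 0 allows (3 counts per litter, covering counting error only) was highest in DEX-1 (11.5 CPM), followed by PBS-1 (6.66), DEX-2 (5.16) and PBS-2 (3.67). Hashtag signal was low: the median was 79.5 UMIs of a cell's own tag, against 989 in the reference cells. HTODemux, another way of calling hashtags, called 80 of the 206 singlets, 123 negative and 3 doublets, and put 0 in another litter.

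Some AT1 barcodes also held RNA of other cell types. By limits set after the data were seen (a Ptprc UMI, at least 10 UMIs of the club cell genes Scgb1a1 and Scgb3a2, over 3 of Cpa3, over 1 of Cd79a and Cd79b, or over 1 of Gata3), 24 of 206 did. DEX-1 had 8 such barcodes among 17, with 51.2% of its AT1 UMIs. The other litters had 4 of 68 (DEX-2, 11.4% of UMIs), 8 of 77 (PBS-2, 20.2%) and 4 of 44 (PBS-1, 16.4%). Their median own tag was 981 UMIs, against 74.5 in the other members. DEX-1 stood apart from the other litters by this share.
One barcode held 1083 of the 1155 Scgb1a1 UMIs of DEX-1, and one held 647 of 657 in PBS-2. Airway markers summed to 8761, 196, 577 and 1612 CPM (unscaled, DEX-1, DEX-2, PBS-1, PBS-2) with all members and to 47.2, 40.7, 58.4 and 33.7 CPM without the 24. The limits themselves used genes of the airway, ILC2 and B and T cell lists. Lower sums of those lists without the 24 therefore follow from the removal. The AT1 identity list summed to 29017, 41531, 44389 and 40511 CPM, and to 43553, 44199, 47872 and 43087 CPM without the 24. DEX-1 was the lowest litter for AT1 identity with all members and no longer so without the 24.
ILC2 markers summed to 855, 452, 724 and 427 CPM and, without them, to 260, 334, 204 and 138 CPM. B and T cell markers summed to 391 CPM for DEX-1 and between 24.1 and 33.3 CPM elsewhere, and to 0 to 23.9 CPM without the 24. The proliferation list summed to 412 to 675 CPM and to 157 to 325 CPM without them. Endothelial markers, which these limits do not address, summed to 222, 167, 113 and 209 CPM with all members and to 252, 180, 135 and 230 CPM without the 24. On the TMM scale over the 8 sums their mean was 166 CPM in AT1 cells and 89.6 CPM in type 2 cells. Each list below is given with and without the 24 barcodes.

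**Figure D4:**
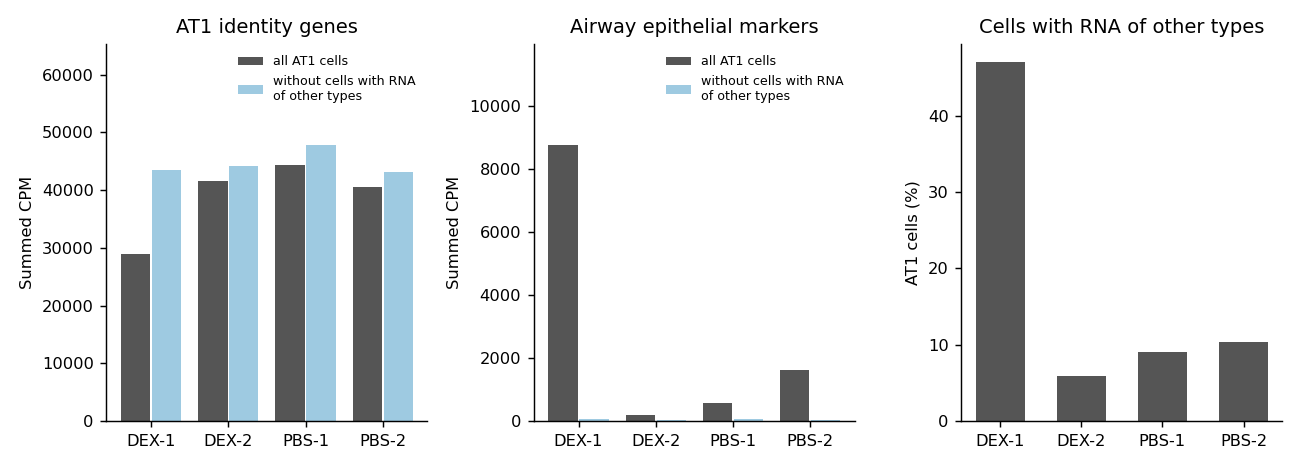
Summed CPM (unscaled) of the AT1 identity list and of the airway markers in the AT1 cells of each litter, with all members (grey bars) and without the 24 barcodes with RNA of other types (blue bars), and the share of AT1 cells that were such barcodes. DEX-1 has the highest share, 47.1%, and its AT1 identity sum goes from 29017 to 43553 CPM without them.

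Of the singlets, AT1 cells made up 0.982% (DEX-1, 95% Wilson interval 0.614 to 1.57) and 2.95% (DEX-2, 2.33 to 3.72), against 2.29% (PBS-1, 1.71 to 3.06) and 2.91% (PBS-2, 2.34 to 3.63). DEX-1 was the lowest litter, but DEX-2 was the highest, so the groups overlapped. The mean share was lower in DEX litters by 0.638 percentage points (-0.638, two-sided exact permutation p = 1). With 2 litters against 2 this test cannot go below 0.333.
Of alveolar epithelial cells, AT1 cells were 19.8% (DEX-1, 12.7 to 29.4) and 27.5% (DEX-2, 22.3 to 33.4), against 28.0% (PBS-1, 21.6 to 35.5) and 18.6% (PBS-2, 15.1 to 22.6). Each group held a low and a high litter, and the difference was 0.337 percentage points (exact permutation p = 1). The intervals cover counting error only. The sort and the tag limits bear on both shares: a further 123 barcodes met the RNA limits without a dominant tag, and 22 with a top tag under 10 UMIs.

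Whether maternal DEX altered transcripts of AT1 cells was asked on the litter sums, scaled by TMM over the 4 AT1 sums. The quasi-likelihood test of edgeR called 0 of 5980 genes (0%) at a Benjamini-Hochberg adjusted p under 0.05. DESeq2 and limma-voom also called 0. At an unadjusted p under 0.05 there were 193 genes by edgeR, 46 by DESeq2 and 205 by limma-voom. In simulated data of this design the test called 27.2% of genes changed 2-fold and 88.8% of those changed 4-fold, so many 2-fold changes would be missed. Both litters of 1 group lay above both of the other in 31.6% of all genes, 15.6% higher and 16.0% lower in DEX, and counts within lists are set against that share.
Each difference below that carries an SE is a log2 difference, DEX minus PBS, over all AT1 members. Its adjusted p by edgeR and Benjamini-Hochberg was 0.999. List medians and values from other choices of barcodes or litters are given without SE or p, and the interaction has its own p.

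The selection genes had these levels. Rtkn2 was at 387 and 540 CPM for the DEX litters and at 582 and 558 CPM for the PBS litters (-0.29 ± 0.21). Aqp5 was at 1832 and 2003 CPM against 2269 and 1628 CPM (-0.02 ± 0.18), and Gramd2 at 208 and 236 CPM against 269 and 271 CPM (-0.27 ± 0.20). For Rtkn2 and Gramd2 both DEX litters lay below both PBS litters, and for Aqp5 the groups overlapped. Without the 24 barcodes the differences were -0.05, -0.15 and 0.28 for Rtkn2, Gramd2 and Aqp5. Since these genes chose the cells, their differences are a description.
Pdpn was at 178 and 318 CPM in DEX litters and 449 and 393 CPM in PBS litters, a difference of -0.73 ± 0.27 (unadjusted p = 0.0241 by edgeR). Both DEX litters were lower, with DEX-1 lowest, and they were lower also without the 24 barcodes (243 and 338 CPM against 487 and 421 CPM, -0.54). Msln was at 1026 and 1622 CPM against 1481 and 1103 CPM (0.04 ± 0.24), and its groups overlapped.

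Of the AT1 identity list, 28 genes could be tested and 0 were called. The median difference was -0.30, against 0.00 over all genes, and 14 of the 28 were lower in both DEX litters than in both PBS litters, with 0 higher. Without the 24 barcodes the median was -0.09, with 10 of 27 lower and 2 higher, where 34.7% of all genes did not overlap. Without DEX-1 it was -0.07, and without DEX-2 it was -0.72.
Hopx was at 3958, 6214, 6659 and 6404 CPM (-0.36 ± 0.19), and at 6750, 6466, 7257 and 6649 CPM without the 24, where the groups overlapped. Emp2 was at 2799 and 3577 CPM in DEX litters and 4190 and 3992 CPM in PBS litters (-0.36 ± 0.15), with -0.11 without the 24. For both, DEX-1 was the low litter with all members.

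**Figure D5:**
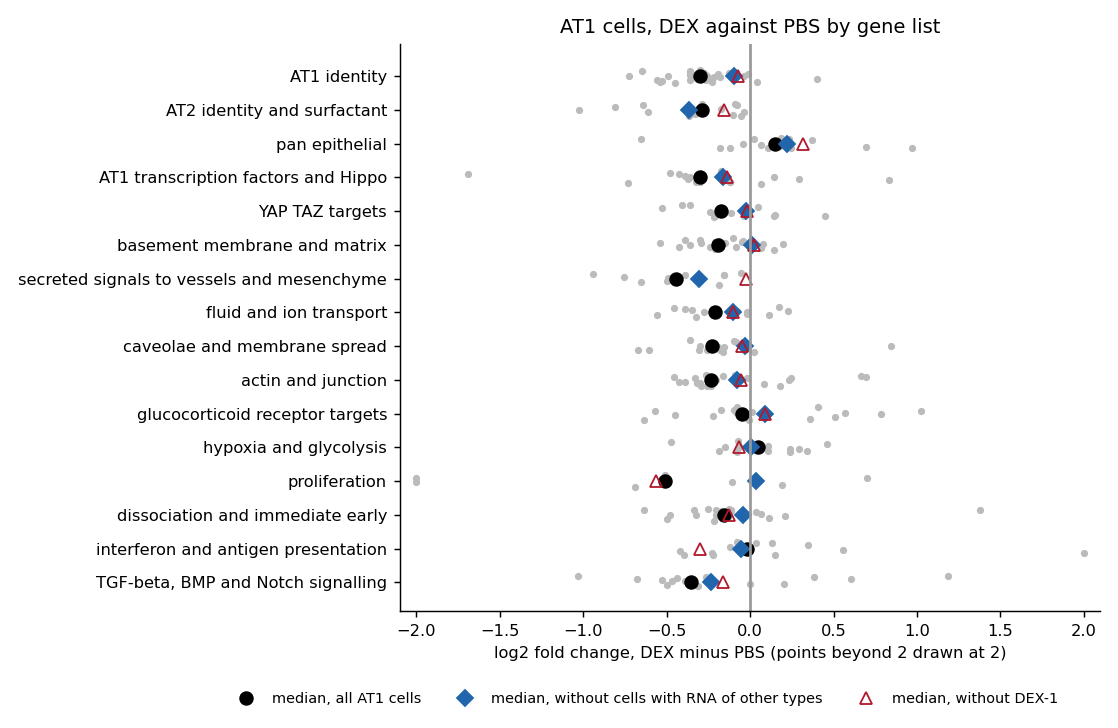
Log2 difference, DEX minus PBS, in AT1 cells by gene list: small points are single genes (those beyond 2 drawn at 2), black circles the median over all members' genes tested, and blue diamonds the median without the 24 barcodes with RNA of other types. The AT1 identity median is -0.30 with all members and -0.09 without those barcodes.

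Caveolae and membrane spread had a median of -0.23 over 17 genes, with 7 lower, 0 higher and 0 called, and a median of -0.03 without the 24. Cavin2 was at 446 and 675 CPM against 933 and 788 CPM (-0.61 ± 0.23), with DEX-1 lowest and the groups apart, and -0.37 without the 24, still apart.
Basement membrane and matrix had a median of -0.19 over 21 genes, with 8 lower, 1 higher and 0 called, and 0.01 without the 24. Timp3 was at 688 and 940 CPM against 1161 and 1215 CPM (-0.54 ± 0.19, and -0.25 without the 24). Fluid and ion transport had -0.21 over 13 genes, with 5 lower and 2 higher (-0.10 without the 24), and Scnn1g was at 115 and 154 CPM against 215 and 190 CPM (-0.56 ± 0.23, and -0.41 without the 24). DEX litters were the lower ones for both genes with and without these barcodes.
Signals to vessels and mesenchyme had -0.44 over 10 genes, with 5 lower and 0 higher, and -0.30 without the 24. Vegfa was at 706 and 965 CPM against 968 and 942 CPM (-0.19 ± 0.20), with overlap. Shh, the hedgehog ligand of lung epithelium, was at 40.9 and 73.4 CPM against 99.9 and 91.8 CPM (-0.66 ± 0.31), with the groups apart.

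The gene of the AT1 transcription factor and Hippo list that stood farthest from 0 was Klf2, a zinc finger factor. The DEX litters had 63.2 and 121 CPM and the PBS litters 391 and 240 CPM, a difference of -1.69 ± 0.34 (unadjusted p = 0.000736, adjusted p = 0.999, edgeR with Benjamini-Hochberg). Both DEX litters lay below both PBS litters, and did so without the 24 barcodes (78.4 and 128 CPM against 413 and 260 CPM, -1.49). The same held with litters by HTODemux (-1.20), which left 10 AT1 cells in PBS-2. The list's median was -0.30 over 17 genes, with 5 lower, 2 higher and 0 called, and -0.16 without the 24. YAP and TAZ targets had -0.17 over 13 genes, with 4 lower and 0 higher, and -0.02 without the 24.
TGF-beta, BMP and Notch genes had -0.35 over 15 genes, with 6 lower, 1 higher and 0 called, and -0.23 without the 24. Id1, a BMP target, was at 126 and 316 CPM against 455 and 484 CPM (-1.03 ± 0.34, and -0.81 without the 24), with the groups apart in both. Hes1, a Notch target, was at 59.5 and 94.4 CPM against 133 and 124 CPM (-0.68 ± 0.28), with DEX-1 lowest.

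Glucocorticoid receptor targets, the list nearest to the treatment, had a median of -0.05 over 19 genes, with 3 higher, 2 lower and 0 called. The median was 0.09 without the 24 barcodes, 0.09 without DEX-1, 0.18 without PBS-2 and 0.18 after thinning, so its sign depended on these choices. Tsc22d3 (GILZ), a classical target named after its values were seen, was at 190 and 267 CPM against 244 and 295 CPM (-0.22 ± 0.23), and Fkbp5, a receptor co-chaperone named likewise, at 14.9 and 26.2 CPM against 26.6 and 21.1 CPM. DEX and PBS litters overlapped for both. Nfkbia and Ddit4 of this list were higher in both DEX litters than in both PBS litters. On the scale shared with type 2 cells, Nfkbia was at 590 and 520 CPM against 412 and 462 CPM in AT1 cells. In type 2 cells Nfkbia was at 677 and 456 CPM against 389 and 320 CPM. Ddit4 was at 53.9 and 55.2 CPM against 29.3 and 50.5 CPM in AT1 cells on that scale. Levels of Nfkbia and Ddit4 without the 24 barcodes are not given here.
Mt1, a metallothionein, was at 833 CPM in DEX-1, 302 in DEX-2 and 262 and 285 CPM in PBS litters (1.02 ± 0.39). It was at 298 and 288 CPM against 307 and 229 CPM without the 24 barcodes, with overlap. Dusp1, a phosphatase of MAP kinases, was at 617 and 1040 CPM against 1259 and 1334 CPM (-0.64 ± 0.24, and -0.40 without the 24). The receptor gene Nr3c1, named after its values were seen, was at 126 and 129 CPM against 149 and 112 CPM (-0.01 ± 0.25).

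Genes of dissociation and immediate early response had -0.15 over 20 genes, with 5 lower and 0 higher, and -0.04 without the 24. Fos was at 3260 and 3324 CPM against 4472 and 4824 CPM (-0.50 ± 0.12), and at 4900 and 3344 CPM against 4556 and 4684 CPM without the 24, so that the groups then overlapped. Cldn4, a tight junction claudin of the epithelial list, was at 372 and 675 CPM against 258 and 391 CPM (0.70 ± 0.31) with overlap, and both DEX litters were higher without the 24 (557 and 741 CPM against 278 and 378 CPM, 1.01). The part of the barcodes with RNA of other types in these differences was not tested further.
Proliferation had -0.51 over 7 genes, with 3 lower and 0 higher, and 0.03 over the 3 genes still measured without the 24. Hypoxia and glycolysis had 0.04 over 16 genes, with 3 higher and 1 lower (0.01 without the 24). Actin and junction had -0.23 over 23, with 2 higher and 8 lower (-0.08 without the 24), and interferon and antigen presentation -0.02 over 12, with 0 higher and 3 lower (-0.05 without the 24).

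Whether the DEX difference was another one in AT1 than in type 2 cells was asked with an interaction term, and 1 of 9669 genes (0.0103%) was called. This was Myl7, an atrial myosin light chain (chr11:5896637-5898782, minus strand, GRCm38). In AT1 cells the DEX litters had 13.5 and 38.4 CPM and the PBS litters 33.5 and 17.6 CPM, with overlap and 58 UMIs in all. In type 2 cells it was at 10.5, 9.30, 221 and 108 CPM, so that only the PBS litters were high there. The AT1 difference exceeded that of type 2 cells by 4.26 ± 0.51 on the log2 scale (edgeR, Benjamini-Hochberg adjusted p = 0.0341). A single type 2 barcode held 510 of the 522 Myl7 UMIs in PBS-1 and another held 606 of the 671 in PBS-2, and the call was lost against the stricter type 2 cells (1.80). No AT1 barcode held more than 4 Myl7 UMIs.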

How the data were processed

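The deposited values were UMI counts per gene and barcode, which the authors made with Cell Ranger 7 (submitters' processing notes, which also name mm10), with hashtags in the same matrix and 0 columns unused. No scaling had been applied. Barcodes with 200 genes or more and at most 5% mitochondrial UMIs were kept (10409), and litters were set by the top hashtag. Doublets were removed by hashtag only, so same-litter doublets remain. Doublets across litters also remain where the top tag had at least 3 times the next, and they carry the litter of that tag. Whether the barcodes with RNA of other types were such doublets was not tested. All litters shared their free RNA. Class names were rebuilt from markers and are not the authors' annotation. The members and gene lists were chosen with earlier results of these data known.

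AT1 counts were summed per litter (2 per group), and edgeR 4.0.16 in R 4.3.3 compared them by its quasi-likelihood F-test after filterByExpr, with TMM scaling and Benjamini-Hochberg adjustment. Standard errors are the log2 difference divided by the square root of F. Litters were separate pools, but fetuses within a pool were not told apart. The common biological coefficient of variation was 0.193. The DEX against PBS step was tested on simulated counts of 5724 genes, where 0.108% of unchanged genes were called. Shares were compared by exact permutation, two-sided.

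Named genes were the 5 markers, every called gene, up to 6 members of each list with the highest mean AT1 level, the 12 genes farthest apart in each direction between AT1 and type 2 cells, and those called in the interaction; genes outside the rule are said to be chosen after their values were seen. Alternatives were RLE factors, other filters, DESeq2 1.42.0, limma-voom (limma 3.58.1), a replicate block, other selection and mitochondrial limits, HTODemux of Seurat 5.3.0 (quantile 0.99), thinning to 2000 UMIs, members without Ptprc and each litter left out. Leaving out barcodes with RNA of other types and the stricter type 2 cells were chosen after seeing the data. Positions are from GENCODE M21 (GRCm38), and promoters from RefSeq (GRCm38.p6), where Rtkn2, Msln and Sftpc were not listed.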

Additional observations from a re-analysis of the deposited data

Results flagged for a closer look

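The difference between DEX and PBS litters in Myl7 was another one in AT1 than in type 2 cells by an interaction test, by 4.26 ± 0.51 on the log2 scale (edgeR, Benjamini-Hochberg adjusted p = 0.0341). A pair of type 2 barcodes, 1 in each PBS litter, held 510 and 606 of the 1240 Myl7 UMIs of type 2 cells, and these barcodes had AT1 selection sums of 10 and 23 UMIs. The 206 AT1 cells held 58 Myl7 UMIs in all, spread over 41 barcodes.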

How the results depend on the processing

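With 2 litters per group and 17 AT1 cells in DEX-1, depth limits what could be called, and 2-fold changes were often missed in simulated data. Of 17 alternatives for genes called between DEX and PBS, 10 gave 0. No filter on low genes gave 76 (59 higher and 17 lower of 15344), a selection sum of at least 2 gave 3, and thinning to 2000 UMIs gave 1. Leaving out 1 litter gave 24 to 410 (43 without DEX-1, 410 without DEX-2, 24 without PBS-1 and 37 without PBS-2), with the lone litter assumed to vary like the other group, and the cause was not tested. Without DEX-2, Pdpn passed the threshold at -1.28 and Rtkn2 at -0.61.

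The interaction gave 36 genes with no filter, 0 with a selection sum of at least 6, 0 against the stricter type 2 cells, and 15 to 268 with 1 litter left out (15 without DEX-1, 268 without DEX-2, 22 without PBS-1 and 31 without PBS-2). Myl7 lost its call with a sum of at least 6 (4.28), without DEX-2 (2.99), with HTODemux litters (3.68) and against the stricter type 2 cells (1.80).

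The AT1 share of singlets changed sign with HTODemux litters (0.273, with 10 AT1 cells in PBS-2) and lay between -1.62 and 0.346 with 1 litter left out, 0.346 without DEX-1. The AT1 share of alveolar epithelial cells changed sign with a sum of at least 6 (-0.390), without members with Ptprc (-0.394), without RNA of other types (-1.19) and with the stricter type 2 cells (-2.23), and lay between -4.38 and 5.05 with 1 litter left out (-3.54 without DEX-2 and -4.38 without PBS-2). The median AT1 identity ratio to type 2 cells, 1.79, was 1.50 in DEX-1 alone, 3.61 against the stricter type 2 cells and 1.42 with HTODemux litters.

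Among the markers, differences near 0 changed sign. Rtkn2 was at 0.0024 after thinning. Aqp5 was at 0.0306 with limma-voom, 0.0133 with a sum of at least 6, 0.23 without Ptprc, 0.0859 after thinning and 0.28 without RNA of other types, and at -0.27 to 0.22 with 1 litter left out (0.05 without DEX-1). Msln was at -0.0046 with no filter, -0.012 with a sum of at least 2, and -0.38 to 0.34 with 1 litter left out (-0.18 without PBS-2). After thinning, the list medians of YAP and TAZ targets (0.12), of signals to vessels and mesenchyme (0.12) and of basement membrane (0.04) were above 0. Gramd2 and Pdpn kept their direction under all 17 alternatives.

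Whether litter numbers paired the samples could not be settled with 2 litters per group. Deviations from the group means correlated at -0.0361 between DEX-1 and PBS-1. The value of 0.0361 between DEX-1 and PBS-2 follows from it, since 2 litters deviate equally from their mean. The edgeR fit with the number as a replicate block called 0 genes, with 206 at an unadjusted p under 0.05.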
